A study of Mus musculus with 2 samples.

Results

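The genes described here are 44 cell cycle genes, read as the rows whose symbol is on a fixed list of names, among 54658 symbols in the tables of both sections. Of these, 18 act in or just before DNA replication and are called S genes, and 21 act in the G2 phase or in mitosis and are called G2/M genes. The other 5 (Ccna2, Plk4, Hmgb2, Stmn1 and Tubb5) act in more than 1 phase or outside the cycle and were assigned to neither. The grouping follows textbook roles and used no measured value.

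The data are spatial transcriptomes of mouse intestine, in which RNA of a tissue slice is captured on a surface of barcoded positions. One group is a slice from wild type mice and the other a slice from Dpf2 knockout mice, and the mice of both groups had received 10 Gy of X-rays. The product of Dpf2 belongs to BAF, a complex that remodels chromatin. There was 1 section of each genotype, no unirradiated section was analysed here, and the labels state neither when after irradiation the gut was taken nor which stretch of it, which part of Dpf2 was deleted or in which tissue. The series asks what DPF2 does in radiation injury of the gut, and the comparison below asks how replication and mitotic transcripts differ between the sections and across the tissue. With 1 section a group there is no test of genotype and no p-value. Values in brackets are 95% intervals that cover counting error only, and barcodes and squares are not replicates.

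The wild-type-labelled section held 50970 barcodes and 39824941 counts, and the knockout-labelled section held 88056 barcodes and 89754886 counts, 2.25 times as many. Levels are therefore given as counts per 1000000 counts of the section (CPM), and a log2 ratio divides the level of the knockout-labelled section by that of the other. Dpf2 stood at 23.6 CPM and 26.0 CPM, a log2 ratio of 0.14 (0.03 to 0.25), so its level was not lower under the knockout label. Without the deleted part being known, this value does not check the label, and directions below are between labelled sections. The tissue under the arrays differed widely. Summed Paneth cell markers took 101036 CPM in the wild-type-labelled section and 5927 CPM in the knockout-labelled section, and summed enterocyte markers took 632 and 36600 CPM. The enterocyte gene Fabp1 stood at 15.3 and 5118 CPM. The 12 pan-epithelial markers summed to 6813 and 8769 CPM, with 9 above 0 and 3 below 0. The 12 markers of crypt stem cells summed to 613 and 750 CPM, but 9 of them were below 0, with a median of −0.52. Olfm4, a stem cell marker at 24.98 and 326 CPM, carried that sum, and the other 11 summed to 588 and 424 CPM. The part of these tissue differences in the values of whole sections was not tested. In sections of mixed tissue, fewer cycling cells and less RNA per cycling cell cannot be told apart.

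A cell that divides first licenses its replication origins by loading the MCM helicase with Cdc6 and Cdt1. Cyclin E with its kinase then starts S phase, Cdc45 and the GINS complex activate the helicase, and the clamp PCNA and the enzymes of nucleotide supply sustain DNA synthesis. Entry into mitosis depends on CDK1 with cyclin B. Aurora and Polo-like kinases, kinesin motors and kinetochore proteins then build the spindle, and the anaphase promoting complex (APC/C) with Cdc20 and Ube2c ends mitosis by protein degradation. In the intestine, division takes place in the crypts, where stem cells and their fast dividing daughters sit beside Paneth cells, and enterocytes leave the cycle as they move onto the villi. Ionising radiation halts the cycle through p53 and its target p21, and surviving crypt cells later divide to rebuild the epithelium.

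S and G2/M genes are known to be switched on by different promoter elements, so the promoters were read first. Many replication genes carry sites for E2F factors. Many mitotic genes carry a cell cycle homology region (CHR) together with CCAAT boxes, which are read by the DREAM and MuvB complexes and by NF-Y. RefSeq promoters on GRCm38.p6 were matched for 36 of the 44 genes, with 250 bases before and 50 bases after the first listed start. Words were searched on both strands. The first word for E2F was TTGGCGC, the second word was TTCCCGC, the third word was TTCGCGC and the last E2F word was TTGCCGC. The word for the CHR was TTTGAA, and that for the box was CCAAT. E2F words on opposite strands can overlap each other, as in Mcm6. The 120 bases before the start are printed for S genes with a strong (Rrm2) and a middling (Mcm6, Rrm1) difference between sections and for G2/M genes with a strong (Cdk1), a middling (Top2a, Cdc20) and almost no (Kif11) difference. They are written 5′ to 3′ along the gene, with every matched word in capitals.
Mcm6 (chr1:128359706-128359825, minus strand): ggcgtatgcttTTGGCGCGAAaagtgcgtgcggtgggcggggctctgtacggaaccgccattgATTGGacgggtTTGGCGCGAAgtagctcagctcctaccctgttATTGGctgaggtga
Rrm1 (chr7:102441575-102441694, plus strand): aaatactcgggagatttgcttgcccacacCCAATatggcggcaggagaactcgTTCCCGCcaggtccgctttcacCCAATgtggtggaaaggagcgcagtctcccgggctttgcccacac
Rrm2 (chr12:24708134-24708253, plus strand): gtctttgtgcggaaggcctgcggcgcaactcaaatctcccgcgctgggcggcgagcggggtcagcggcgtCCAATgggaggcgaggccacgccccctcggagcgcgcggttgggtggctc
Cdk1 (chr10:69352913-69353032, minus strand): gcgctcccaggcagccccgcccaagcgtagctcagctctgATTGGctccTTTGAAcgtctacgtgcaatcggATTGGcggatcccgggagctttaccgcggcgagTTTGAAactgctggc
Top2a (chr11:99024190-99024309, minus strand): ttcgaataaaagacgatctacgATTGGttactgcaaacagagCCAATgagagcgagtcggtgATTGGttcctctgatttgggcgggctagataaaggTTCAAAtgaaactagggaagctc
Kif11 (chr19:37376262-37376381, plus strand): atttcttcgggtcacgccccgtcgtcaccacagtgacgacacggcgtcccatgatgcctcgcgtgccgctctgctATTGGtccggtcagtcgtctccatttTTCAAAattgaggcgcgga
Cdc20 (chr4:118437344-118437463, minus strand): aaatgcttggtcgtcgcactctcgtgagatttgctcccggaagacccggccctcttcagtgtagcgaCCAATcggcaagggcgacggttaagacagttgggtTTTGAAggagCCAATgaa

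An E2F word occurred in 8 of 15 S promoters and in 3 of 18 G2/M promoters, against 9.69% of the 27025 promoters in the table. The CHR word occurred in 2 of 15 S promoters (Mcm2 and Cdc45) and in 13 of 18 G2/M promoters, against 18.1% of all. A variant of it, TTTAAA, was also searched and separated the phases far less. It occurred in 4 of 15 S and 6 of 18 G2/M promoters, against 13.2% of all, and is not counted as the CHR word here. A CCAAT box occurred in 9 of 15 and 16 of 18, against 37.9% of all. Both the CHR word and a CCAAT box occurred in 13 of 18 G2/M promoters and in 7.12% of all promoters. The stretches above show the pattern: Mcm6 and Rrm1 hold E2F words and no CHR word, while Cdk1, Top2a, Kif11 and Cdc20 each hold a CHR word within 120 bases of the start beside CCAAT boxes. The full window of Cdk1 also holds E2F words farther from the start, and the E2F word of Rrm2 lies outside its stretch. The 13 genes with an E2F word had a median log2 ratio of −1.25, with a range of −1.93 to −0.78, and the 23 without one had a median of −0.65, with a range of −2.34 to −0.04. The 16 genes with a CHR word had a median of −0.66 and the 20 without one had −1.10. These words go with phase, so the medians repeat the split by phase described next and are no separate evidence. A matched word is not a shown binding site.

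Replication genes were the lower group in the knockout-labelled section. Of the 18 S genes, 16 had a log2 ratio below 0 and 11 were at least 2-fold lower, with a median of −1.05 (quartiles −1.28 and −0.87). Of the 21 G2/M genes, all 21 lay below 0 and 6 were at least 2-fold lower, with a median of −0.66 (quartiles −1.06 and −0.47). Among all 14516 genes with 200 or more counts, 57.2% had a ratio below 0, 19.7% were at least 2-fold lower, 15.7% were at least 2-fold higher, and the median was −0.18. No member was at least 2-fold higher, 19 of 44 were at least 2-fold lower and 33 were at least 1.5-fold lower, against 33.6% of all genes. All 44 had 200 or more counts. Scaling by the median of ratios adds 0.18 to each log2 ratio. On that scale 14 members were at least 2-fold lower, against 15.6% of all genes, and Kif11 and Bub1b moved just above 0. Over squares of tissue in which pan-epithelial markers took at least 0.822% of counts, the median of all squares, the medians were −1.41 for S and −1.21 for G2/M, against −0.38 for all genes. There 36 members were at least 2-fold lower, against 28.7% of all genes. Such squares made up 29.1% of the wild-type-labelled section and 62.8% of the other. S genes stood at 1448 CPM inside and 1051 CPM outside them in the wild-type-labelled section, and at 505 CPM inside and 587 CPM outside in the knockout-labelled section. The squares thus lay on opposite sides of the level outside them in the 2 sections, so they do not compare like epithelium.

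A section was also divided by position into 4 parts of about equal barcode number. In 37 members all 4 parts of the knockout-labelled section lay below all 4 parts of the other, in Gins2 they lay above, and in 6 the ranges overlapped. Over all genes the parts lay apart in these directions in 42.8% and 31.6%. The parts come from the same slice, so they show evenness within it and not the spread between animals. The overlaps were in Ccne2 among the S genes, in Birc5, Bub1b, Cenpe and Kif11 among the G2/M genes, and in Hmgb2.

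**Figure D1:**
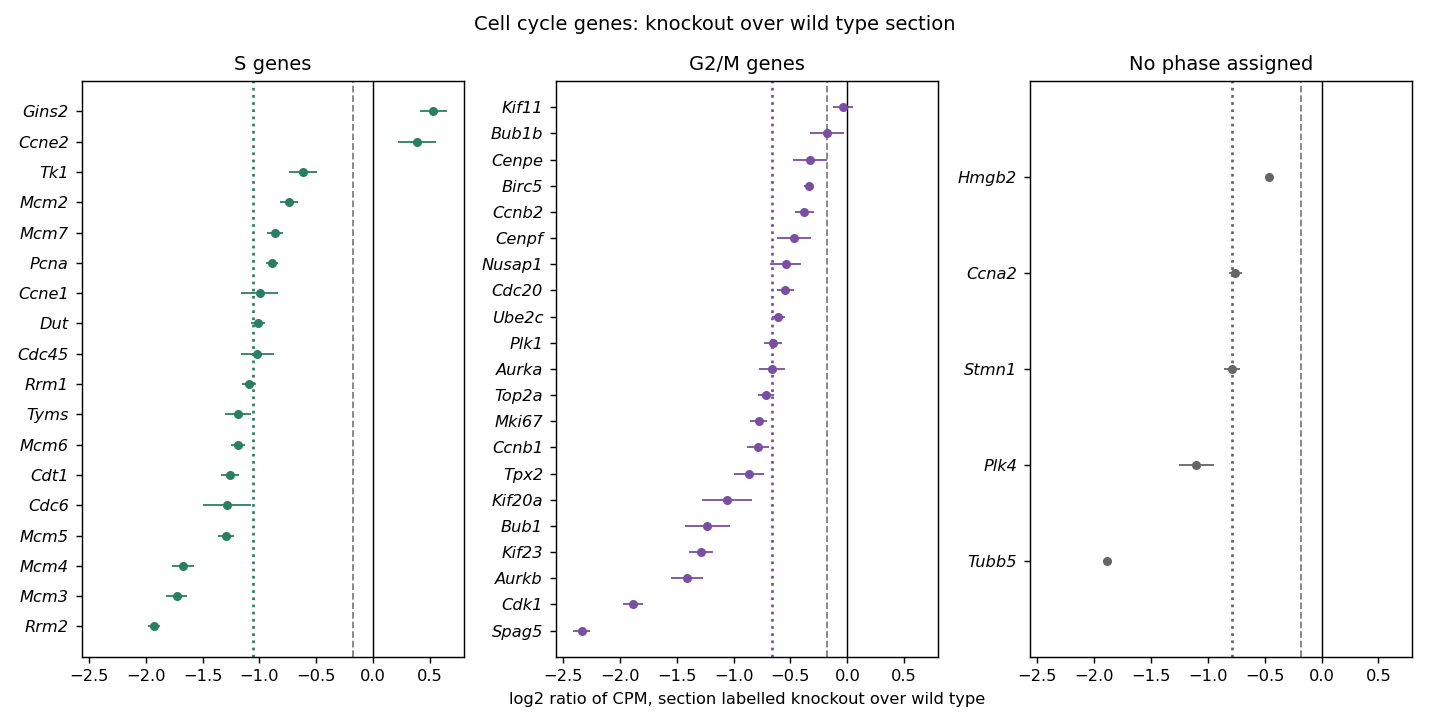
Log2 ratio of CPM, knockout-labelled over wild-type-labelled section, for each of the 44 genes in 3 panels by phase, with 95% counting intervals. The solid line marks 0, the dashed line the median of all genes at −0.18 and the dotted line the median of the panel, which is −1.05 for S genes and −0.66 for G2/M genes; Gins2 and Ccne2 are the points right of 0.

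The licensing factors and the helicase were lower as a group apart from Gins2. Their 10 genes summed to 555 CPM (548 to 562) in the wild-type-labelled section and 264 CPM (260 to 267) in the knockout-labelled section, and the median ratio was −1.22. The 6 subunits of the MCM ring, which act as a hexamer, did not differ by one common factor. Mcm3 stood at 57.5 CPM and 17.4 CPM, a ratio of −1.73 (−1.82 to −1.63), and Mcm4 at 50.8 and 16.0 CPM, a ratio of −1.67 (−1.77 to −1.57). Mcm5 stood at 83.5 and 34.1 CPM (−1.29) and Mcm6 at 107 and 46.7 CPM (−1.19). Mcm7 (80.8 and 44.4 CPM, −0.86) and Mcm2 (61.4 and 36.8 CPM, −0.74) were the least different, and their intervals lay clear of those of Mcm3 and Mcm4. For all 6 subunits the parts of the sections did not overlap. Mcm7, for example, ranged from 72.4 to 84.5 CPM over the parts of the wild-type-labelled section and from 40.4 to 46.7 CPM over the others.

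The factors that load and fire the helicase were lower too. Cdc6, which loads MCM onto origins, had 381 counts (9.57 CPM, 8.63 to 10.6) and 353 counts (3.93 CPM, 3.53 to 4.37), a ratio of −1.28. Cdt1, its partner in loading, stood at 67.2 and 28.1 CPM, a ratio of −1.25 (−1.33 to −1.18). Cdc45, which joins the helicase when an origin fires, stood at 18.9 and 9.30 CPM (−1.02). Gins2, a subunit of the GINS complex that binds the same active helicase, ran the other way, with 750 counts or 18.8 CPM (17.5 to 20.2) in the wild-type-labelled section and 2435 counts or 27.1 CPM (26.1 to 28.2) in the knockout-labelled section. Its ratio was 0.53 (0.41 to 0.65), and its parts spanned 17.4 to 21.1 CPM and 25.7 to 28.2 CPM without overlap.

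Every gene of the sliding clamp and of nucleotide supply was lower in the knockout-labelled section, with a summed level of 584 against 251 CPM. Rrm2 (chr12:24708254-24714146 on GRCm38) encodes the small subunit of ribonucleotide reductase, the enzyme that makes deoxyribonucleotides, and its supply limits the enzyme. It stood at 190 CPM (186 to 195) and 49.99 CPM (48.5 to 51.5), a ratio of −1.93 (−1.98 to −1.87), with parts at 160 to 210 and 46.3 to 52.9 CPM. Rrm1, the large subunit, differed less, at 102 and 48.1 CPM (−1.09, −1.15 to −1.03). Tyms, which makes thymidylate, stood at 30.3 and 13.3 CPM (−1.19). Dut, which removes dUTP, stood at 101 and 50.04 CPM (−1.01). Pcna, the clamp that holds the polymerase, stood at 137 and 74.1 CPM (−0.89), with parts at 130 to 142 and 72.7 to 76.2 CPM, among the narrowest ranges of any member. Tk1, the salvage thymidine kinase, stood at 23.3 and 15.2 CPM (−0.62, −0.74 to −0.49).

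The E-type cyclins, which drive entry into S phase, had opposite signs. Ccne1 stood at 14.6 CPM (13.5 to 15.9) and 7.34 CPM (6.79 to 7.92), a ratio of −0.996 (−1.16 to −0.83). Ccne2 stood at 10.0 CPM (9.08 to 11.1) and 13.1 CPM (12.4 to 13.9), a ratio of 0.38 (0.22 to 0.55), but its parts overlapped, at 8.18 to 11.9 and 11.9 to 14.8 CPM. The difference in Ccne2 was therefore beyond counting error and not beyond the spread within the sections.

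Among the mitotic genes, the kinase that drives entry differed more than its cyclins. Cdk1 (chr10:69335146-69352912 on GRCm38) stood at 69.7 CPM (67.1 to 72.3) and 18.9 CPM (18.0 to 19.8), a ratio of −1.89 (−1.97 to −1.80). Its parts spanned 61.7 to 75.4 and 17.3 to 20.5 CPM. Ccnb1 stood at 41.1 and 23.9 CPM (−0.79, −0.88 to −0.69) and Ccnb2 at 46.4 and 35.7 CPM (−0.38, −0.46 to −0.29). Ccna2, the A-type cyclin that serves S phase and mitotic entry, lay with Ccnb1 at 116 and 68.9 CPM (−0.76). The intervals of the 3 cyclins did not reach that of Cdk1.

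The mitotic kinases and checkpoint genes covered a wide range. Aurkb, the kinase of the chromosomal passenger complex, stood at 23.5 and 8.86 CPM (−1.41, −1.55 to −1.27), while Birc5, the survivin subunit of the same complex, stood at 158 and 125 CPM (−0.34), and its parts overlapped at 139 to 166 and 105 to 150 CPM. The checkpoint kinase Bub1 stood at 10.9 and 4.65 CPM (−1.23, −1.43 to −1.03). Its relative Bub1b, which encodes BubR1, stood at 14.0 and 12.4 CPM (−0.18, −0.33 to −0.03), with overlapping parts. Aurka, the spindle pole kinase, and Plk1 were alike, at 27.5 and 17.3 CPM (−0.66) and at 51.8 and 32.9 CPM (−0.65). Plk4, which controls centriole duplication, stood at 17.2 and 8.0 CPM (−1.10). Aurkb and Birc5, and likewise Bub1 and Bub1b, thus had intervals that lay clear of each other. The genes that end mitosis, Cdc20 and the ubiquitin carrier Ube2c, stood at 58.4 and 40.1 CPM (−0.54) and at 113 and 74.0 CPM (−0.61).

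Motors and spindle proteins held both ends of the G2/M range. Spag5 (chr11:78301470-78322457 on GRCm38), which encodes the spindle protein astrin, stood at 116 CPM (112 to 119) and 22.9 CPM (21.9 to 23.9). Its ratio of −2.34 (−2.41 to −2.26), a level 5.05-fold lower, was the lowest of the 44, and its parts spanned 101 to 123 and 21.0 to 27.6 CPM. Kif11, the kinesin that pushes spindle poles apart, stood at 39.5 CPM (37.5 to 41.5) and 38.4 CPM (37.1 to 39.7), a ratio of −0.04 (−0.13 to 0.05), so no difference was seen beyond counting error. Kif23, a kinesin of the central spindle, stood at 39.9 and 16.4 CPM (−1.29), and Kif20a, which acts in cytokinesis, at 8.54 and 4.10 CPM (−1.06). Tpx2, an activator of Aurora A on spindle microtubules, stood at 21.6 and 11.9 CPM (−0.86), and the microtubule binder Nusap1 at 18.4 and 12.6 CPM (−0.54). The kinetochore genes Cenpf and Cenpe were among the least different, at 14.3 and 10.4 CPM (−0.47) and at 14.3 and 11.4 CPM (−0.33).

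Genes of mitotic chromosomes lay near the median of the G2/M list. The proliferation marker Mki67 stood at 69.1 and 40.2 CPM (−0.78) and Top2a, which untangles DNA, at 68.9 and 42.0 CPM (−0.71). Hmgb2, a chromatin protein abundant in dividing cells, stood at 244 and 177 CPM (−0.46), with overlapping parts at 196 to 264 and 154 to 202 CPM. Of the microtubule genes, Stmn1 stood at 67.3 and 39.1 CPM (−0.79) and Tubb5, a beta tubulin that also serves cells outside division, at 505 and 137 CPM (−1.89).

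Reads of 14 of the 44 genes cannot be assigned without doubt, because RefSeq places another gene over part of them and the strand used in counting is not stated. Among them are Gins2 with Gse1, Ccne2 with Ints8, Spag5 with the noncoding Gm3948, and Kif11 with pseudogenes. Of the 11 pairs of a member and an overlapping gene with 200 or more counts, 8 had ratios of the same sign and 3 of opposite sign. Gse1 had a ratio of 0.72 (0.58 to 0.87) and Ints8 of 0.17 (0.04 to 0.29), beside 0.53 for Gins2 and 0.38 for Ccne2. The opposite pairs were Afmid (0.49) over Tk1 (−0.62), Ap4m1 (0.19) over Mcm7 (−0.86) and Elovl1 (0.02) over Cdc20 (−0.54). The part of these overlaps in the counts was not tested.

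Summed over the phase, S genes gave 46352 counts or 1164 CPM (1153 to 1175) in the wild-type-labelled section and 48008 counts or 535 CPM (530 to 540) in the knockout-labelled section, a log2 ratio of −1.12 (−1.14 to −1.10). G2/M genes gave 40785 counts or 1024 CPM (1014 to 1034) and 54211 counts or 604 CPM (599 to 609), a ratio of −0.76 (−0.78 to −0.74). The parts did not overlap for either phase. S genes spanned 1037 to 1232 and 501 to 569 CPM, and G2/M genes spanned 911 to 1078 and 528 to 667 CPM. The levels were thus 2.18-fold and 1.70-fold lower under the knockout label.

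The balance of the phases, the G2/M counts divided by the S counts, does not depend on how the sections are scaled. It was 0.880 (0.868 to 0.892) in the wild-type-labelled section, with parts at 0.858, 0.872, 0.879 and 0.907. In the knockout-labelled section it was 1.13 (1.12 to 1.14), with parts at 1.05, 1.12, 1.15 and 1.21, so each of its parts lay above each of the others. The log2 ratio of the balances was 0.36 (0.33 to 0.39), a 1.28-fold difference. With each member left out in turn it ranged from 0.24, without Rrm2, to 0.48, without Spag5. These 2 abundant genes thus pulled the balance in opposite directions.

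The balance did not carry over to other genes of the same phases. A list of 53 further S genes and one of 53 further G2/M genes, none of them members, had 52 measured genes each. Of the other S genes, 46 had a ratio below 0 and 20 were at least 2-fold lower, with a median of −0.86. Of the other G2/M genes, 48 lay below 0 and 8 were at least 2-fold lower, with a median of −0.64. The medians thus kept the order seen in the members, but the summed counts did not, at −0.51 for S and −0.58 for G2/M. The balance over these lists was 0.921 in the wild-type-labelled section and 0.877 in the knockout-labelled section, a log2 ratio of −0.07 (−0.09 to −0.05), against 0.36 for the members. A few abundant genes weigh on it. Without Rfc5, the S gene of most counts, it was 0.01 (−0.01 to 0.03), and without Tmpo, the G2/M gene of most counts, −0.02.

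Among the abundant genes of these lists, Rfc5 and Hjurp had ratios above 0. Rfc5, a subunit of the clamp loader, stood at 85.4 and 118 CPM (0.47, 0.41 to 0.52), and the centromere chaperone Hjurp at 58.5 and 100.1 CPM (0.77). The lowest S genes outside the members were Chaf1b, a histone chaperone at forks (19.6 and 4.26 CPM, −2.20), and Clspn, an adaptor of the replication checkpoint (11.7 and 2.75 CPM, −2.09). Dlgap5 (10.9 and 3.30 CPM, −1.73) and Ckap2l (26.3 and 8.37 CPM, −1.65), both of the spindle, were the lowest of the other G2/M genes, and Pttg1, which encodes securin, stood at 26.1 and 29.7 CPM (0.19) with overlapping parts.

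Each section was next cut into tiles of 100 by 100 position units, and tiles with 200 or more barcodes were kept. The 65 tiles of the wild-type-labelled section had S levels of 386 to 1568 CPM with a median of 1222, and the 92 tiles labelled knockout 316 to 836 CPM with a median of 523. In 57 of the 65 the S level was above the highest tile labelled knockout. G2/M levels spanned 278 to 1472 CPM with a median of 1054, and 249 to 1068 CPM with a median of 594, and 31 of the 65 tiles were above the highest of the other section. The tiles of the 2 sections therefore overlapped more in G2/M level than in S level. The balance spanned 0.408 to 1.03 with a median of 0.878, and 0.789 to 1.56 with a median of 1.10. It exceeded 1 in 1 of 65 tiles and in 74 of 92 tiles.

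**Figure D2:**
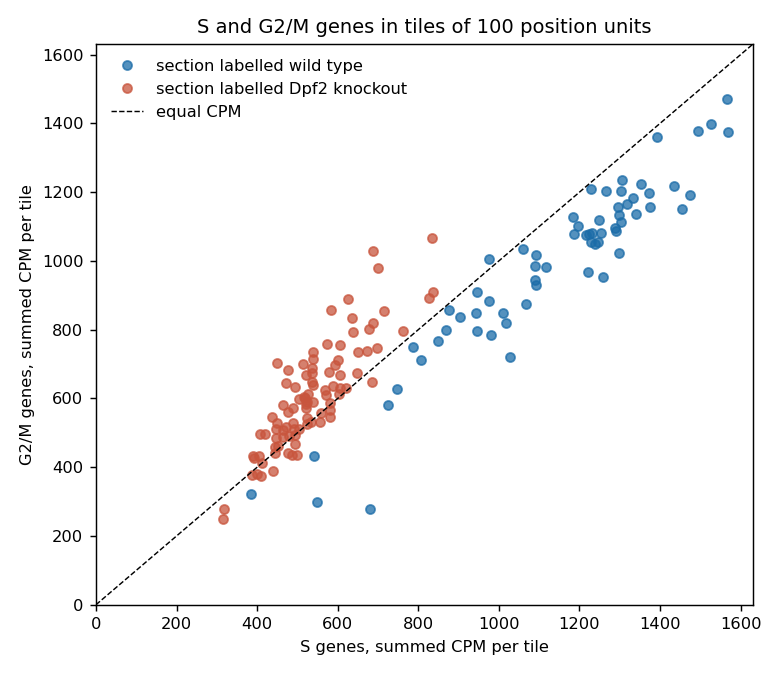
Summed CPM of the G2/M genes (vertical axis) against summed CPM of the S genes (horizontal axis) in tiles with a side of 100 position units, 65 from the wild-type-labelled section and 92 from the knockout-labelled section, with a dashed line at equal levels. Most tiles labelled knockout, 74 of 92, lie above the line at low levels, and all but 1 of the tiles labelled wild type lie below it.

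At a finer scale, squares with a side of 10 units held a median of 11 barcodes in each section and 7747 and 10308 counts. Squares with 2000 or more counts were kept, 4669 of 5120 and 8141 of 8346, and each was thinned to 2000 counts so that depth was equal. A square can hold several cells. At least 1 S count was found in 87.0% (86.0 to 88.0) of squares labelled wild type and 63.3% (62.2 to 64.3) of squares labelled knockout, and at least 1 G2/M count in 82.3% (81.2 to 83.4) and 65.2% (64.2 to 66.2). Without thinning nearly all squares had a count, with 98.8% and 96.6% for S and 97.4% and 96.8% for G2/M. Counts of both phases were found in 72.6% and 42.6% of thinned squares and counts of neither in 3.32% and 14.1%. Squares with S counts alone made up 14.4% and 20.7%, and squares with G2/M counts alone 9.66% and 22.6%. Squares with 5 or more S counts, the dense end, made up 11.2% and 1.29%, and those with 5 or more G2/M counts 8.05% and 2.42%.

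**Figure D3:**
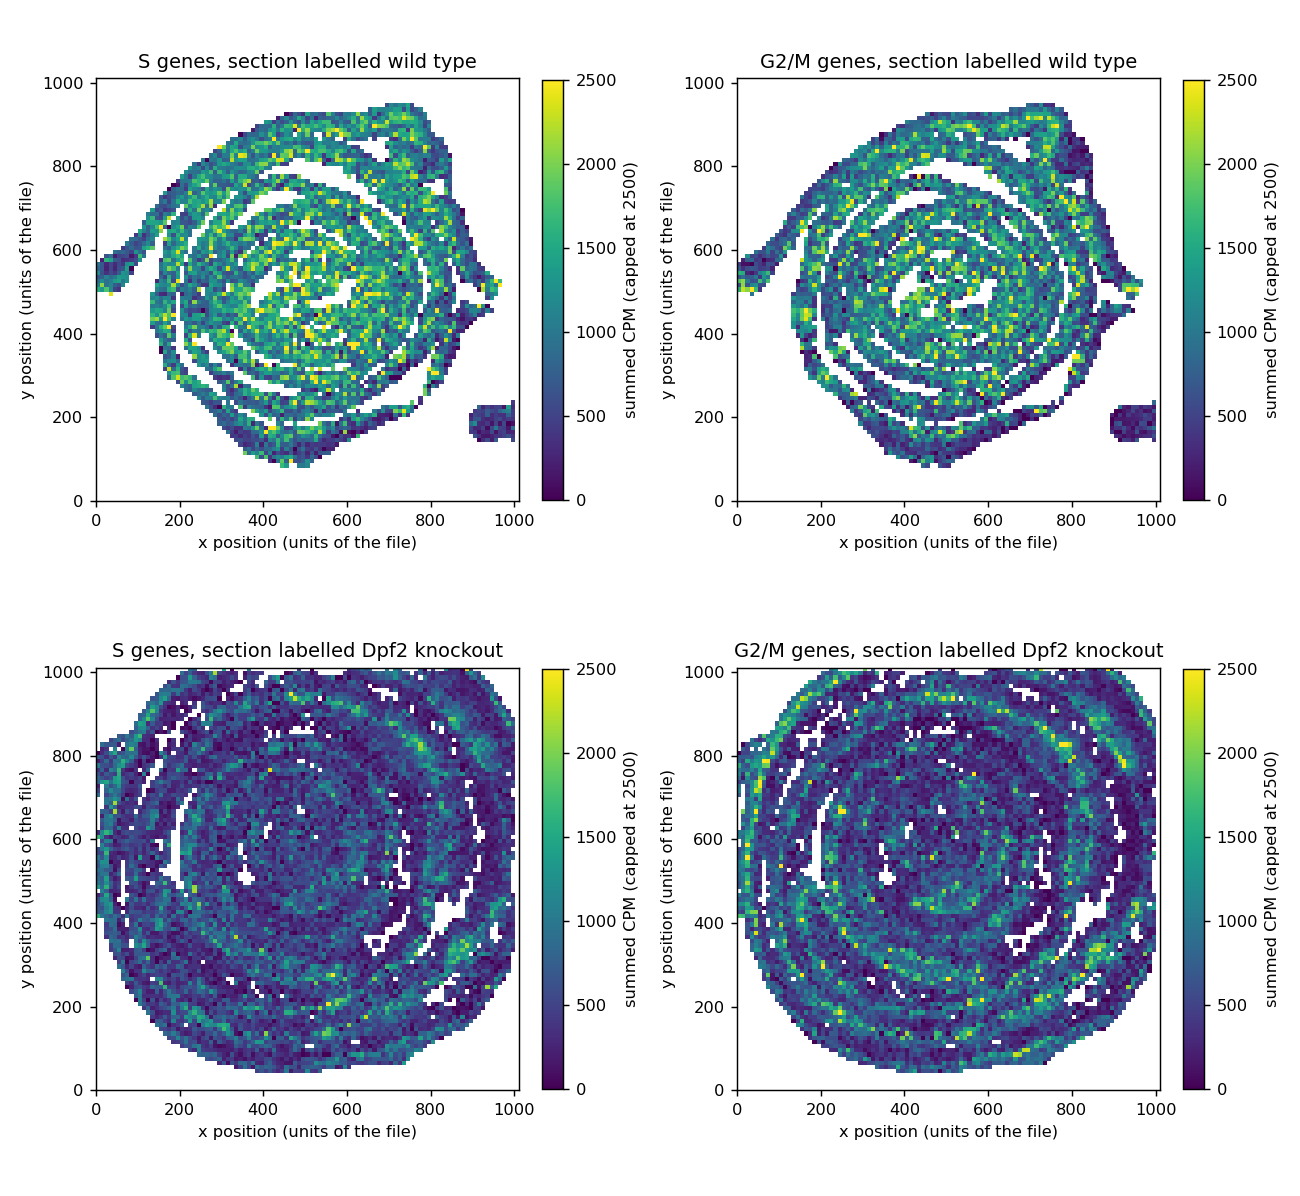
Summed CPM of the S genes (left) and G2/M genes (right) in squares of 10 position units over the wild-type-labelled section (top) and labelled knockout (bottom), with the color scale capped at 2500 CPM and white where no square was kept. Levels are high over most of the coiled tissue in the wild-type-labelled section, and concentrated in thin curved bands over a low ground in the knockout-labelled section.

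Squares with more counts of one phase tended weakly to hold more of the other. Over thinned squares, Spearman's rho between the S and the G2/M share was 0.17 in the wild-type-labelled section (0.14 to 0.25 over its parts, 4669 squares) and 0.15 in the knockout-labelled section (0.08 to 0.18, 8141 squares). Over unthinned shares it was 0.43 and 0.46. The squares of a section share 1 library, and the shares of a square have 1 total in common, so these values describe and do not test. Single genes gave weak pairs. Over pairs of S genes the median rho was 0.05 and 0.05, over pairs of G2/M genes 0.06 and 0.07, and over pairs of unlike phase 0.06 and 0.06. Medians within and across phases were thus alike at this count depth. Between squares 10 units apart rho was 0.14 and 0.10 for S, 0.15 and 0.19 for G2/M and 0.14 and 0.13 across phases. At 50 units it was 0.05 and 0.00 for S and 0.05 and 0.02 for G2/M, so the likeness of neighbours was small and faded within a few squares.

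The G2/M level was read in squares grouped by their thinned S count. In the wild-type-labelled section it was 764 CPM (740 to 787) in the 606 squares with no S count, 894 with 1, 1002 with 2, 1118 with 3, 1240 with 4 to 5 and 1418 CPM (1364 to 1473) in the 217 squares with 6 to 8. In the knockout-labelled section it was 497 CPM (489 to 504) in 2988 squares with none, then 583, 688, 844 and 1015, and 1267 CPM (1131 to 1414) in the 27 squares with 6 to 8. The level was higher at each step in both sections, and the sections were closest at the densest squares, where the intervals overlapped. Squares with the same thinned count did not have the same S level. Over all their counts, S genes stood at 686 and 365 CPM in squares with none and at 1584 and 1108 CPM with 4 to 5. The gap at a given count is therefore not a gap at equal S level. Squares labelled wild type with 1 S count had an S level of 912 CPM and a G2/M level of 894 CPM. Squares labelled knockout with 3 had 850 and 844 CPM.

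**Figure D4:**
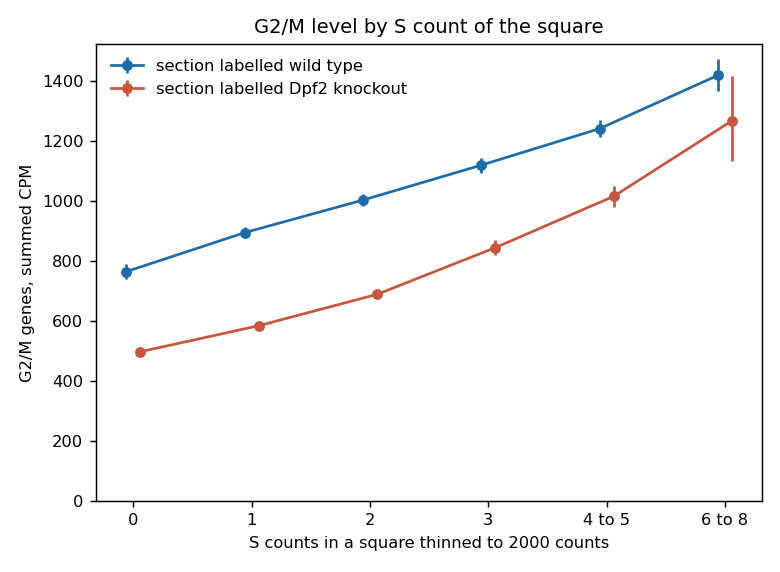
Summed CPM of the G2/M genes (vertical axis) in squares of 10 position units grouped by the number of S counts after thinning to 2000 counts (horizontal axis), for each section, with 95% counting intervals. The lines climb from 764 to 1418 CPM in the wild-type-labelled section and from 497 to 1267 CPM in the knockout-labelled section, and the gap is narrowest at 6 to 8 S counts. Within a group of squares, the S level over all counts was higher in the wild-type-labelled section.

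The squares richest in one phase were used to read the genes of the other, so that the genes read did not choose the squares. In the 10% of squares richest in S share (467 and 814 squares), G2/M genes stood at 1502 CPM (1462 to 1543; parts 1472 to 1559) and 1188 CPM (1164 to 1213; parts 1130 to 1238). Outside them they stood at 978 and 550 CPM, so the enrichment was 1.54-fold and 2.16-fold. The difference between sections within S-rich squares was −0.34 (−0.39 to −0.29), against −0.76 for whole sections. In the squares richest in G2/M share, S genes stood at 1585 and 974 CPM, a difference of −0.70 (−0.75 to −0.65), against −1.12. The difference of S genes was thus larger than that of G2/M genes, as in whole sections. Each was read in squares chosen by the other phase, so the phases were not compared in the same squares. The squares were chosen within each section and were not matched in level between the sections. S genes stood at 2254 and 1305 CPM in S-rich squares, and G2/M genes at 2128 and 1608 CPM in G2/M-rich squares. Squares rich in both phases made up 25.9% of the S-rich squares labelled wild type (121 of 467) and 41.5% of those labelled knockout (338 of 814). A square beside an S-rich square was itself S-rich in 16.9% and 31.5% of cases, and a square beside a G2/M-rich one was G2/M-rich in 20.9% and 33.7%. Each of these shares was higher in the knockout-labelled section, whose S-rich squares also held more counts, at a median of 8624.5 against 7171. The part of depth in these shares was not tested.

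Gene by gene, levels within S-rich squares were near equal for several mitotic genes, though these squares were not matched in S level. Over the 21 G2/M genes in S-rich squares the median log2 ratio was −0.21, with 17 below 0 and 2 at least 2-fold lower. Of all genes in these squares 52.0% were below 0 and 14.3% at least 2-fold lower, with a median of −0.05. Birc5 stood at 222 CPM in each section (0.00, −0.12 to 0.12), Plk1 at 71.3 and 70.8 CPM (−0.01, −0.23 to 0.21) and Ube2c at 151 and 146 CPM (−0.05, −0.20 to 0.10). Kif11 was higher in the knockout-labelled section there, at 46.9 and 66.2 CPM (0.50, 0.24 to 0.76), as was Bub1b at 18.9 and 26.4 CPM (0.48, 0.08 to 0.90). Spag5 and Cdk1 stayed low, at 201 and 55.0 CPM (−1.87, −2.05 to −1.70) and at 104 and 38.3 CPM (−1.44, −1.66 to −1.21). Over the 18 S genes in G2/M-rich squares the median was −0.67, with 15 below 0 and 3 at least 2-fold lower, against 52.1% and 14.8% of all genes and a median of −0.04. The 3 genes were Rrm2 (253 and 99.0 CPM, −1.35, −1.49 to −1.22), Mcm4 (71.4 and 32.2 CPM, −1.15) and Mcm3 (84.1 and 39.6 CPM, −1.09). Tk1 was level at 36.8 and 38.3 CPM (0.06, −0.24 to 0.35). Among the genes of no phase, Hmgb2 was level at 314 and 304 CPM (−0.05, −0.15 to 0.06) and Tubb5 stayed lower at 637 and 241 CPM (−1.40, −1.49 to −1.31).

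Almost every member followed the others from square to square. Of all genes, 68.4% in the wild-type-labelled section and 69.3% in the knockout-labelled section were higher in S-rich squares than outside, with medians of 1.14-fold and 1.16-fold. In S-rich squares chosen without the gene itself, S genes were enriched by 1.32-fold (Ccne2) to 1.60-fold (Mcm2) in the wild-type-labelled section, and by 1.55-fold (Ccne2 and Pcna) to 2.91-fold (Cdc6) in the knockout-labelled section, with 1 exception. Gins2 was enriched 1.47-fold in the wild-type-labelled section, at 26.5 against 18.1 CPM, and 1.02-fold in the knockout-labelled section, at 27.7 against 27.1 CPM. Its rho with the other S genes there was −0.02. G2/M genes were enriched in S-rich squares by 1.21-fold (Kif11) to 1.88-fold (Spag5) and by 1.85-fold (Kif23) to 2.76-fold (Spag5). Rfc5, an abundant S gene outside the members with a ratio above 0, was also flat in the knockout-labelled section, at 0.98-fold.

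The tissue around the cycling squares differed between the sections. In the wild-type-labelled section, squares in the top 10% for pan-epithelial markers held 1466 CPM of S genes (1429 to 1505) and 1463 CPM of G2/M genes, above the section means of 1164 and 1024. Squares rich in stem cell markers were near the mean, at 1200 and 1038 CPM, and Paneth-rich squares were low, at 740 and 637 CPM. Of the 44 genes, 43 were higher in pan-epithelial squares than outside them, against 70.9% of all genes, with a median of 1.41-fold against 1.16-fold. In stem cell squares 25 members were higher, against 62.4% of all genes. In Paneth squares 0 members and 5.41% of all genes were higher, with medians of 0.59-fold and 0.66-fold, so the low count there is near that of genes in general. Paneth markers alone took 225374 CPM of those squares, which lowers the share left for any other gene. Smooth muscle squares were low as well, at 758 and 560 CPM, with a balance of 0.738 against 0.880 for the section, and 43 members were lower there, against 65.5% of all genes.

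In the knockout-labelled section, cycling transcripts lay with stem cell markers and away from enterocyte markers. Stem cell squares held 832 CPM of S genes (813 to 851) and 944 CPM of G2/M genes (924 to 964), and 43 of 44 members were higher there than outside, against 71.9% of all genes. The median was 1.72-fold for the members and 1.23-fold for all genes, and Aurkb stood at 2.22-fold and Tubb5 at 2.03-fold. Olfm4 held 29280 of the 67348 stem cell marker counts in this section and 995 of 24405 in the other. It therefore weighed far more on the choice of stem cell squares here, and those of the sections are not chosen alike. The stem cell list also holds Cdca7, which is among the further S genes. The part of either in these values was not tested. Enterocyte squares held 297 CPM of S genes (287 to 307) and 272 CPM of G2/M genes (262 to 281). There 43 of 44 members were lower, against 75.3% of all genes, with medians of 0.42-fold and 0.72-fold. Tpx2 stood at 0.31-fold and Tk1 at 0.33-fold, and Gins2 was the exception at 1.19-fold. Pan-epithelial squares, high in the wild-type-labelled section, had 35 of 44 members lower, against 66.1% of all genes, with medians of 0.89-fold and 0.92-fold. Goblet squares were low, at 367 and 372 CPM. Paneth squares stood at 706 and 771 CPM, with 43 of 44 members higher than in the rest of the section, against 68.2% of all genes, and medians of 1.33-fold and 1.15-fold. Fibroblast and smooth muscle squares lay above the section mean, at 644 and 692 CPM and at 609 and 666 CPM. In them 40 and 38 members were higher than outside, against 69.3% and 67.1% of all genes. The medians were 1.25-fold and 1.13-fold for members and 1.18-fold and 1.15-fold for all genes, so the size of the rise was near that of genes in general. The lowest balance was in enterocyte squares, at 0.915 (0.871 to 0.960), and the highest in pan-epithelial squares, at 1.24 (1.19 to 1.29).

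Read the other way, summed stem cell markers in S-rich squares stood at 1.84-fold the level of the rest in the knockout-labelled section. In the wild-type-labelled section they stood at 1.08-fold, and the unlike weight of Olfm4 applies here too. Paneth markers stood at 1.35-fold and 0.49-fold, and enterocyte markers at 0.53-fold and 0.93-fold. Squares are small regions, so these values tell which transcripts lay near each other and not which cells divided.

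**Figure D5:**
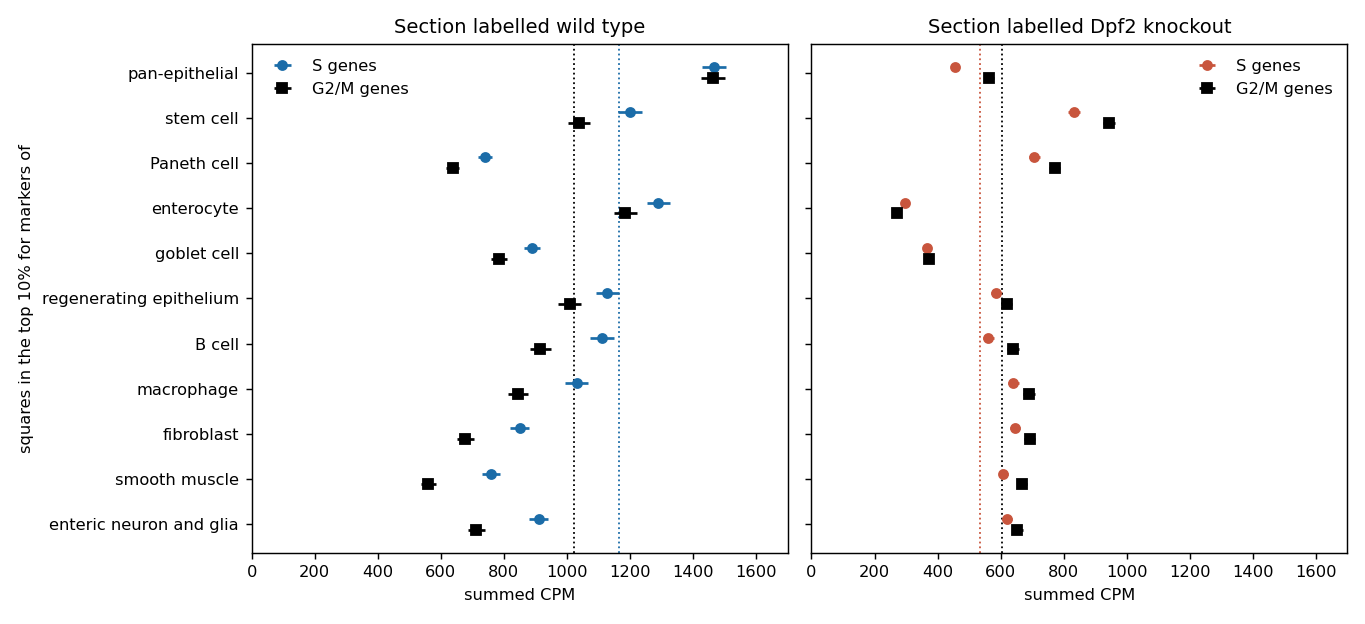
Summed CPM of the S genes (circles) and G2/M genes (squares) with 95% counting intervals in the 10% of squares richest in markers of each cell type, for the wild-type-labelled section (left) and labelled knockout (right), with dotted lines at the level of the whole section. On the left, pan-epithelial squares are high and Paneth cell and smooth muscle squares low; on the right, stem cell and Paneth cell squares are high and enterocyte and goblet cell squares low.

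Genes outside the members were also ranked by how closely their share of counts followed a phase. In the knockout-labelled section, the genes most like the summed S share over 8141 squares, among 6027 genes with 2000 or more counts, were the ribosomal genes Rplp1 (rho 0.50) and Rpsa (0.50), then Ptma (0.45), which encodes prothymosin alpha. For the G2/M share they were Rpsa (0.58), Rplp1 (0.57) and Rps12 (0.52). The enterocyte genes Apoa1 (−0.45 with S and −0.53 with G2/M) and Anpep (−0.45 and −0.50) were at the opposite end. In the wild-type-labelled section, S100a6 led for both phases (0.40 and 0.45 over 4669 squares, among 3080 genes). Ribosomal genes were near the top here too, with Rplp1 (0.40 and 0.38), Rpsa (0.38 and 0.39) and Rps24 (0.37 and 0.39). Beside them were Lgals4 (0.39 and 0.44), Gpx2 (0.38 and 0.39) and Ly6a (0.36 and 0.41). Hsp90ab1 (0.37) and Rps26 (0.36) also ranked above Ly6a for S, and Chd9 (0.44) and Cldn7 (0.42) for G2/M. Ly6a is a gene of regenerating epithelium, and Lgals4 is an epithelial lectin. Summed markers of regenerating epithelium stood at 1.09-fold in S-rich squares of this section, against a median of 1.14-fold over all genes. Itln1, a Paneth and goblet cell lectin, was at the opposite end (−0.32 with each phase). All these genes are abundant, which raises rho in sparse counts.

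Other parts of the cell cycle machinery were read from lists that hold no member, beside 57.2% of all genes below 0 and a median of −0.18. Of 11 cyclins, kinases and Cdc25 phosphatases, listed mainly for G1, 10 were below 0, with a median of −0.81. The list is not specific to G1, since Cdc25 phosphatases also act at entry into mitosis, and the median is the value of one of them. Ccnd1, cyclin D1, stood at 100.0 and 42.0 CPM (−1.25) and Cdk6 at 33.9 and 17.1 CPM (−0.99), while Ccnd2 stood at 199 and 163 CPM (−0.29). All 11 measured genes of cohesin and condensin, the rings that hold and fold chromosomes, were below 0, with a median of −0.58. Of these, the condensin genes Smc2 (−1.56) and Ncapg2 (−1.38) were lowest and Ncaph2 (−0.05) and the cohesin gene Rad21 (−0.08), which would lie above 0 under median-of-ratios scaling, highest. Of 21 genes of the APC/C and of SCF ubiquitin ligases, 14 were below 0, a share near that of all genes, with a median of −0.39. The APC/C subunits Cdc23 (−1.27) and Anapc7 (−1.10) were lowest, and Anapc13 (0.66) and the activator Fzr1 (0.39) highest.

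Transcription factors of the cycle went both ways. Mybl2, which works with MuvB on mitotic promoters, had 1066 counts (26.8 CPM) and 427 counts (4.76 CPM), a ratio of −2.49 (−2.66 to −2.33). Myc stood at 99.1 and 23.6 CPM (−2.07). Tfdp2, a partner of E2F, stood at 11.3 and 25.2 CPM (1.16), and Nfya, a subunit of the CCAAT binder NF-Y, at 11.8 and 20.4 CPM (0.79). Over the 22 factors 16 were below 0, against 57.2% of all genes, with a median of −0.52.

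Inhibitors and checkpoint kinases showed no common direction. Of 21 genes, 12 were below 0 and 9 above, with a median of −0.16, which changes sign under median-of-ratios scaling. Their summed levels were alike at 916 and 920 CPM. Cdkn2b, the p15 inhibitor of CDK4 and CDK6, had 129 counts (3.24 CPM) and 2793 counts (31.1 CPM), a ratio of 3.26 (3.01 to 3.53), and Ccng2, a cyclin linked to arrest, stood at 27.9 and 125 CPM (2.16). In the knockout-labelled section Ccng2 was 2.12-fold enriched in enterocyte squares and at 0.52-fold in S-rich squares. Pkmyt1, an inhibitory kinase of CDK1, stood at 6.98 and 1.66 CPM (−2.07), and Gadd45g at 22.5 and 6.29 CPM (−1.84). Cdkn1a, which encodes p21 and was picked after its values were seen, stood at 259 and 181 CPM (−0.51). Histone genes were split as well, with 9 of 12 below 0, against 57.2% of all genes, and a median of −0.49. Hist1h2bc stood at 58.6 and 296 CPM (2.34), and Hist1h3c had 63 and 54 counts (−1.39).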

How the data were processed

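Whole-number counts per gene and barcode were deposited by the authors for each section, with no normalization. Per the labels' protocols, 10 µm slices were sequenced as paired reads of 150 bases at 50000 or more reads per spot of 100 µm, and BSTMatrix and BSTViewer kept positions under tissue. Per the submitters' processing notes the build was GRCm38. The aligner, the counter and the handling of molecular identifiers were not given in the sources used here. Position columns of the deposited tables carry no unit. Counts were added up where a symbol recurs, which 94 features do.

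The members and gene lists were chosen with earlier results of these data known. Counts were summed per section and expressed as CPM, with exact Poisson intervals. For ratios and shares of squares exact binomial intervals (Clopper-Pearson, conditional for ratios) were used, and the balance carries a normal approximation on the log scale, all at 95%. No count was 0 among the members. A count of 3, the most that 0 counts would allow, equals 0.0753 and 0.0334 CPM. The barcode names of the sections are shared in 45557 cases, because they name positions of the array. A list gives genes with 20 or more counts.

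All 44 members are named, and of other lists the 2 highest and 2 lowest ratios among genes with 50 or more counts, Dpf2, the 10 genes most like each phase over squares, and any gene said to weigh on a sum or to overlap a member. Some genes that this rule names are left out of the text. Ratios of single genes and the correlation of unthinned shares over squares were checked on simulated data. Sums, the balance, thinning and the choice of rich squares were not. Python 3.11.15, numpy 2.4.6, scipy 1.17.1, pandas 2.3.3 and matplotlib 3.10.9 were used. Alternatives covered scaling, barcodes, tissue, lists, thresholds and squares.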

Additional observations from a re-analysis of the deposited data

How the results depend on the processing

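No result changed sign in the 66 alternative values, of which 28 stayed within a set range of the main value and 38 moved beyond it. That range was the 95% interval for sums, the balance and G2/M in S-rich squares. For medians, correlations and the share of squares it was the standard deviation over the 4 parts of the sections. For the count of members it was 1.5-fold, and a count cannot change sign. No paired analysis was possible because each group has 1 section. Scaling by the median of ratios gave medians of −0.87 (S) and −0.48 (G2/M) and sums of −0.94 and −0.58. Leaving the 100 most abundant genes out of the total gave sums of −1.23 and −0.87, and leaving out Paneth cell and immunoglobulin genes gave an S median of −1.20, sums of −1.27 and −0.91, and −0.41 for G2/M in S-rich squares. In squares where pan-epithelial markers took at least 0.822% of counts, the medians were −1.41 and −1.21, the sums −1.52 and −1.26, the balance 0.26, and 36 members were at least 2-fold lower. At 1.5-fold, 33 were. Without the most abundant member (Pcna or Birc5) the sums were −1.16 and −0.85 and the balance 0.30. Strict lists gave an S sum of −1.15 and a balance of 0.39, and wide lists a G2/M sum of −0.70 and a balance of 0.42.

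Values over squares depend on depth. The correlations of S with G2/M (wild-type-labelled, then knockout-labelled section) were 0.0602 and 0.0600 in squares of 5 units, 0.43 and 0.39 in squares of 20, 0.43 and 0.46 without thinning, and 0.37 and 0.33 at 5000 counts. The share of squares with G2/M counts, knockout-labelled minus wild-type-labelled section, was −17.1 percentage points and became −11.8, −2.04, −0.53 and −7.43 in these settings. G2/M in S-rich squares was −0.40 with squares of 5 units and −0.46 in the richest 20%. More counts per square leave fewer squares at 0 by construction, and the cause of the other shifts was not tested.

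The limits are those of the design. One section stands for each genotype, so genotype, animal, slice and stretch of gut cannot be told apart. Depth allows every member to be measured in a whole section, but in single squares it is thin: more than 50% of squares held a count of the gene for only 11 of the 44 members in the wild-type-labelled section and 4 in the knockout-labelled section.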

Other observations

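The S genes Gins2 and Rfc5, which had ratios above 0, were spread unlike most members in the knockout-labelled section. Against the rest of that section, they stood at 1.19-fold and 1.20-fold in enterocyte squares, where 43 of the 44 members and 75.3% of all genes were below 1. In S-rich squares they stood at 1.02-fold and 0.98-fold. These genes were singled out after their values were seen, and the reads behind them were not examined.

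Kif20a, a motor of cytokinesis, had the highest enrichment of the 44 members in smooth muscle squares of the knockout-labelled section. It stood at 2.06-fold there, at 1.73-fold in fibroblast squares and at 1.59-fold in macrophage squares, on 368 counts in the whole section. The medians of all genes were 1.15-fold in smooth muscle squares and 1.18-fold in fibroblast squares. Kif20a was singled out as the highest of the 44 after the values were seen, and few of its counts fall in such squares. Tubb5 stood at 1.76-fold in smooth muscle squares and 1.75-fold in fibroblast squares. RefSeq places Brd8 and Cdc23 over part of Kif20a.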
